A study of Mus musculus with 8 samples.

Results

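The libraries described here are the SOX9 CUT&Tag libraries from mouse spinal cord 1 day after injury and the secondary-only controls made from the same nuclei samples. They were taken by their labels, SOX9 1dpi and Control 1dpi, and told apart in the merged coverage by the index each stretch carries, which gave 4 of the 8 libraries of the series, 2 in each group. The study compared contused and uninjured cords, and only the cords at 1 day are used in the comparisons below. In each group 1 library came from a male (M) and 1 from a female (F) wild-type C57BL/6 mouse sample. The methods give an age of 8 to 12 weeks at entry, and the reporting table gives 2 to 6 months. A segment of 5 mm around the injury was taken, its nuclei were sorted on the DNA stain 7AAD per the labels, and 150000 nuclei per sample were used, of which 20% were set aside and received the secondary antibody without the SOX9 antibody. Libraries were amplified for 15 PCR cycles.

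SOX9 is a transcription factor of the SOXE family that binds DNA through an HMG box. In the adult spinal cord it is found mainly in astrocytes and ependymal cells, and in cartilage it drives the genes of the extracellular matrix. CUT&Tag tethers a transposase to an antibody on chromatin, so that DNA near the bound protein is cut out and sequenced.

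The depth of the groups differed. SOX9 M held 2538725 fragments and SOX9 F 2396777, while Control M held 53341 and Control F 10948. Signal below is coverage divided by the library's mean coverage of the genome, so that 1 is the genome mean. In the 2000-bp window around a gene start (TSS signal), a single fragment of average length lifts the value by 0.539 in SOX9 M and 0.572 in SOX9 F, but by 25.7 in Control M and 125 in Control F. A window with 0 fragments still allows a signal of up to 77.2 in Control M and 375 in Control F, counted as 3 fragments per library. These limits and the intervals below are at the 95% level or the 3-fragment floor, and cover counting error only.

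The control libraries also held fragments whose ends recurred in the SOX9 libraries, called shared below. Of the 44452 fragments of Control M that stood alone, start and end could be read. For 86.0% both ends were found in at least 1 of the 4 SOX9 libraries of the series, against 0.0967% after a shift of 50 bp. The start and the end were matched separately within a library, so they need not belong to 1 SOX9 fragment where fragments are dense. For Control F the share was 91.3% of 10658, against 0.235% after the shift. The shared fragments were spread over the SOX9 libraries, with 24.7% of the lone fragments of Control M found in SOX9 M at 1 day, 16.9% in SOX9 F at 1 day, and 47.8% in the uninjured SOX9 libraries. Between the 2 SOX9 libraries at 1 day, 0.722% of the lone fragments of M were found in F. Removing the shared fragments left 9013 fragments (16.9%) in Control M and 957 (8.74%) in Control F. At that depth a fragment weighs more. In TSS windows 1 fragment gave 291 at Usp5 in Control M, and 3 gave 3788 at Gm10800 in Control F. A 0 without the shared fragments is therefore a weaker limit than a 0 as deposited, and does not show that signal is absent. Control values are given as deposited, and beside them without the shared fragments for the profile, the shares, the correlations, the highest windows, the test counts, the printed promoters and the genes and lists where so stated. Some of these were added after seeing the data. The removal took fragments from the controls alone, by their match to SOX9 libraries, while the SOX9 libraries kept theirs. Where the controls then fall below the SOX9 libraries, the removal itself can lower them, so such an order is not a separate test. How the controls came to hold these fragments was not tested, so whether their signal is that of the secondary antibody alone is not known here.

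The sex labels were checked on chromosomes X and Y. Chromosome Y took 0.627% of the coverage in SOX9 M and 0.141% in SOX9 F, and chromosome X took 1.91% and 2.59%. Ddx3y, an RNA helicase gene on Y, had a TSS signal of 2.22 in SOX9 M (4 fragments) and 0.502 in SOX9 F (1 fragment). Eif2s3y, Kdm5d and Uty, also on Y, had 1.81, 0.580 and 0.516 in SOX9 M and were at 0 in SOX9 F. The SOX9 libraries thus differed in the direction of their labels. In the controls chromosome Y took 0.265% (M) and 0.129% (F) of the coverage, and chromosome X 2.06% and 2.07%.

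Signal of the SOX9 libraries was concentrated at gene starts. Averaged over 21938 protein-coding genes, coverage in 50-bp bins peaked at 12.4 times the genome mean in SOX9 M and 9.68 times in SOX9 F, both within 25 bp of the start, and fell to 2.07 and 1.95 at 2.5 to 3 kb. The controls peaked too, at 13.3 times the genome mean in Control M, 25 bp before the start, and at 14.3 times in Control F, 125 bp before it. All 4 profiles thus had a peak near the start, and SOX9 F had the lowest. Without the shared fragments the controls peaked at 8.98 (M) and 11.2 (F), both 75 bp after the start, so SOX9 M then had the highest peak and Control M the lowest.

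**Figure D1:**
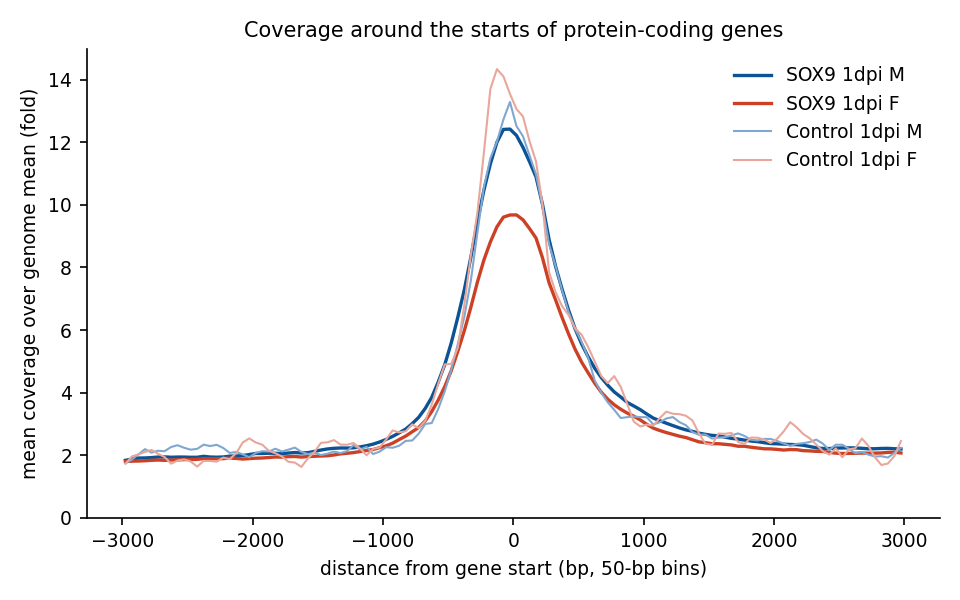
Mean coverage over the genome mean (fold) against distance from the gene start in 50-bp bins, for the 2 SOX9 and the 2 control libraries at 1 day. The lines peak at 12.4 (SOX9 M), 9.68 (SOX9 F), 13.3 (Control M) and 14.3 (Control F).

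The windows around gene starts cover 1.52% of the genome. They held 9.41% of the coverage in SOX9 M, 7.92% in SOX9 F, 9.03% in Control M and 9.60% in Control F. The groups overlapped, with means of 8.66% ± 1.05 (SD, n = 2) and 9.31% ± 0.402 (SD, n = 2), and the difference of −0.653 points was smaller than the spread of the SOX9 libraries (exact two-sided permutation test, p = 0.667). Gene bodies cover 38.2% of the genome and held 59.7%, 57.8%, 58.2% and 61.9% of the coverage in the same order. The means were 58.8% ± 1.35 and 60.0% ± 2.62 (SD, n = 2 each), a difference of −1.28 points (exact two-sided permutation test, p = 0.667). Two-sided p-values in groups of 2 cannot go below 0.333, so no such comparison could pass 0.05. Without the shared fragments the controls had 6.93% (M) and 6.43% (F) in the windows around gene starts and 51.4% and 60.3% in gene bodies, and both differences turned to SOX9 above control, by 1.98 and 2.92 points. Around gene starts both controls were then below both SOX9 libraries by coverage. Counted by fragment midpoints, Control F (8.41%) stayed above SOX9 F (8.12%) and was below SOX9 M (9.84%). For gene bodies the turn came from Control M, and Control F stayed above both SOX9 libraries by coverage. By midpoints Control F (59.0%) lay between SOX9 M (59.3%) and SOX9 F (57.3%) there.

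Most genes carried some signal in the SOX9 libraries, and receptor genes of the nose were prominent among those without. At the TSS 18931 genes (86.3%) had a fragment in SOX9 M and 19123 (87.2%) in SOX9 F, with median signals of 3.58 and 3.24. A signal of at least 5 times the genome mean, called high below, was reached in both libraries by 7356 genes (33.5%). No signal was seen in either library at 1623 genes (7.40%), of which 546 were olfactory and 170 vomeronasal receptor genes, out of 1135 and 331 such genes among the 21938. Over gene bodies the medians were 1.51 and 1.5, closer to the genome mean than at the TSS.

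The 20 genes with the most TSS signal, ranked by the lower of the values in SOX9 M and F, fall into 2 kinds. Of these, 12 are predicted genes (Gm symbols) whose windows are at least 49.9% repeat-masked, 9 of them next to each other near the start of chromosome 9. Gm10800 (chr2:98666547-98667301) had the most, with 1169 in SOX9 M, 1260 in SOX9 F, 2385 in Control M and 2174 in Control F. It is 1 of the few genes with fragments enough in each control, 76 and 15, and it was higher in both controls than in both SOX9 libraries. Without the shared fragments the controls had 90.9 (1 fragment) and 3788 (3 fragments) there, so the order then depended on the library. Gm10722 (chr9:3000922-3002330) had 549, 614, 538 and 302 in the same order, so both SOX9 libraries stood above both controls, though 549 and 538 lie close, and without the shared fragments the controls had 39.8 and 0. Gm21738 on chromosome 14 had 237 and 265 in the SOX9 libraries against 349 and 0 in the controls, and Gm10801, beside Gm10800, had 142 and 155 against 217 and 193. Control M without the shared fragments had 0 at Gm21738 and 291 at Gm10801 (2 fragments), and Control F had 0 at both. The other predicted genes, Gm10718, Gm10717, Gm11168, Gm17535, Gm10721, Gm10719, Gm10715 and Gm10720, lay between 81.1 and 307 in the SOX9 libraries. They had 80.3 to 234 in Control M and 0 to 280 in Control F. Without the shared fragments Control M had 94.6 (Gm10717, 1 fragment) to 925 (Gm11168, 3 fragments), and Control F had 0 at each. Control M was then above both SOX9 libraries at Gm11168, Gm10721, Gm10715 and Gm10720, and not at the others. Of these, Gm10717 and Gm10719 depended on the start used, and at the start of the best-ranked transcript the mean of M and F went from 254 to 107 and from 128.5 to 234.

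The other 8 of the 20 have windows at most 19.5% repeat-masked. Cic (chr7:25267704-25294159), a transcriptional repressor downstream of receptor kinases, had 120.3 in SOX9 M, 87.3 in SOX9 F, 58.5 in Control M and 0 in Control F. The controls held 3 and 0 fragments there, at or under the limit set by their depth. Agpat1, an acyltransferase of phospholipid synthesis, had 96.1 and 84.2 in the SOX9 libraries against 108 (5 fragments) and 0 in the controls. Rnf5, a ubiquitin ligase of the endoplasmic reticulum, had 92.9 and 80.6 against 96.7 (4 fragments) and 0. Their starts lie 572 bp apart, so they share most of 1 window and count as a single site. Rap2a (chr14:120478444-120507194), a small GTPase, had 118 and 81.5 in the SOX9 libraries against 37.2 and 133 in the controls. Zbtb20 (chr16:42875881-43642602), a zinc finger repressor with a role in astrocyte formation, had 101 and 78.0 against 96.7 and 401, from 4 fragments in each control. Sp1 (chr15:102406143-102436404), which binds GC boxes, had 99.4 and 77.3 against 173 and 37.6. Mob3a and Izumo4 start 207 bp apart and had near-equal values, 102 and 77.7 for Mob3a and 104 and 77.9 for Izumo4, against 72.1 and 182 in the controls for both. Once the shared fragments were removed, Zbtb20 kept 64.6 and Agpat1 72.9 in Control M from 1 fragment each, and the other 6 had 0 in both controls. With the start of the best-ranked transcript in place of the gene start, the mean of M and F fell from 89.6 to 2.09 at Zbtb20 and from 90.1 to 10.7 at Agpat1. In all 8, SOX9 M was above SOX9 F, and none of the 20 except Gm10800 passed the test against the controls described below.

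**Figure D2:**
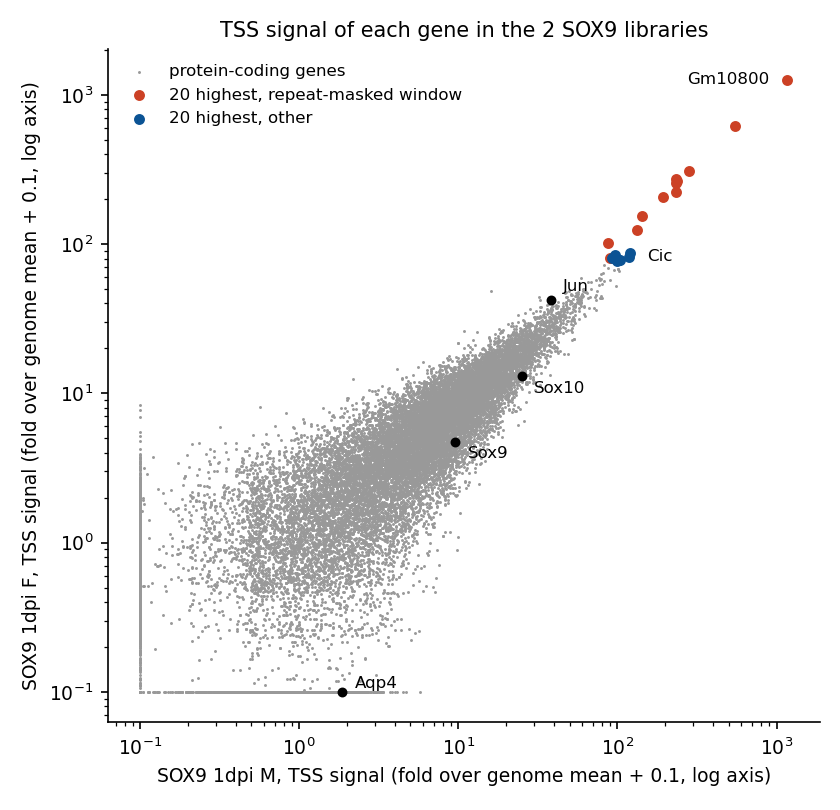
TSS signal of each protein-coding gene in SOX9 M and SOX9 F (fold over the genome mean plus 0.1, log axes). The 12 repeat-masked genes of the 20 highest reach 1169 and 1260 at Gm10800, above Cic at 120.3 and 87.3, and Sox9 lies at 9.45 and 4.64.

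With windows at least 45% repeat-masked left out, a step chosen after the values were seen, the 40 highest genes all had at least 47.0 in both SOX9 libraries. Several encode regulators of transcription, among them Klf13 (67.8 and 55.4), the GATA cofactor Zfpm1 (79.4 and 53.5), the calmodulin-binding activator Camta1 (76.0 and 53.5) and the clock gene Per1 (62.4 and 47.6). Kinase genes were among them, Gsk3b with 90.3 and 57.3, Gsk3a with 60.2 and 49.6, and Csnk1g2 with 98.3 and 52.2. Garnl3 (82.7 and 72.2), Rab40c (86.5 and 69.2) and Hdgfl2 (95.6 and 66.7) stood above these, at ranks 21, 22 and 25 of all genes. At the start of the best-ranked transcript, the mean of M and F was 2.1 at Garnl3 in place of 77.5, 8.53 at Csnk1g2 in place of 75.2, and 31.3 at Per1 in place of 55.0. Shared start regions recurred, as Usp5 and Cdca3 start 63 bp apart, Tbc1d17 and Akt1s1 88 bp apart, and Mpc2 and Dcaf6 162 bp apart. These genes are ordered by signal alone, and no theme among them was tested.

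The 500 highest genes at the TSS had windows rich in CpG. Their median ratio of observed to expected CpG was 0.715 against 0.474 over all genes, and it was above 0.6 in 397 (79.4%) against 7445 of 21938 (33.9%). Their median GC content was 57.9% against 51.2%. Another gene started within 1 kb of 173 of them (34.6%), against 2764 (12.6%) of all genes. Gene length was alike, with medians of 17.7 and 17.4 kb. The 1623 genes without signal lay at the other end, with a median CpG ratio of 0.125 and a GC content of 38.1%.

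High TSS signal was shared between the SOX9 libraries. Of the 500 highest genes in each, 370 (74.0%, Wilson interval 70.0 to 77.7) were in both lists, as were 81 of the 100 highest and 1491 of the 2000 highest. Across the 21938 genes, which share library depth and base composition and are not independent replicates, the rank correlation of M and F was 0.892 at the TSS and 0.904 over gene bodies. TSS and gene body signal correlated at 0.729 in SOX9 M and 0.714 in SOX9 F. The rank correlation of SOX9 M was 0.422 with Control M and 0.240 with Control F, whose own correlation with each other was 0.158, at a depth where 17205 genes had no fragment in either control. These correlations without the shared fragments were 0.140, 0.0625 and 0.0111.

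The M and F libraries differed in level. Among 9938 autosomal genes with at least 5 in the higher SOX9 library, the median ratio of M to F was 1.24, with quartiles of 0.928 and 1.62, and M was higher in 6888 (69.3%). M exceeded F by over 2-fold at 1239 genes and F exceeded M at 364. Over all 21938 genes, sex chromosomes and genes without signal included, M was higher in 12099, a smaller share. The largest ratios rest on few fragments. Chrna7, a nicotinic receptor subunit, had 5.6 in SOX9 M from 9 fragments and 0 in SOX9 F. Its ratio of M to F per depth was 2.83 with the 0 set to the floor of 3 fragments per library. The lower 95% counting limit, from 9 and 0 fragments, was 1.86. BC052040 had 10 fragments in M and 1 in F, a ratio per depth of 9.44 with an interval of 1.34 to 409.7, and Med12l had 9 and 2, a ratio of 4.25 with an interval of 0.879 to 40.4. In the other direction Gm8138 had 8.28 in F (13 fragments), Gm21680 had 7.64 (15) and Greb1, an oestrogen-induced gene, had 6.85 (10), all with 0 in M. With the 0 in M set to the same floor, the ratios of F to M per depth were 4.59, 5.3 and 3.53. Their lower 95% counting limits were 3.23, 3.8 and 2.37. With 1 library per sex, sex, animal and library cannot be told apart.

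Chromosome X stood below the autosomes. The median TSS signal of its 948 genes was 0.827 in SOX9 M and 0.952 in SOX9 F, against 3.86 and 3.45 for 20807 autosomal genes, and 95 of them (10.0%) were high in both libraries against 7260 (34.9%). The lower level was thus seen in both sexes.

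Over gene bodies, short genes stood at the top. The 12 predicted genes led again, with 2882 and 3081 in the SOX9 libraries at Gm10800. They were followed by A730061H03Rik, a short gene of 465 bp on chromosome 14, with 67.2 in SOX9 M, 63.8 in SOX9 F and 0 in both controls. Gm10260 on chromosome 13 had 52.6 in SOX9 M, 167 in SOX9 F, 3817 in Control M and 435 in Control F, and 36 fragments of Control M lay in its 561 bp. Fkbp2, a chaperone of the secretory pathway, had 60.1, 43.4, 72.5 and 209. Without the shared fragments Control M had 7037 (11 fragments) at Gm10260 and 258 (1 fragment) at Fkbp2, and Control F had 0 at both. The 500 highest gene bodies had a median length of 3.68 kb, and 121 of them (24.2%) were also among the 500 highest at the TSS.

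The SOXE genes carried signal at their own starts, Sox10 and Sox8 more than Sox9. Sox9 (chr11:112782224-112787760) had a TSS signal of 9.45 in SOX9 M (18 fragments) and 4.64 in SOX9 F (7 fragments), with 0 fragments in both controls. It ranked 7804 by the lower value, so many genes stood above the gene of the targeted factor itself. Sox10, the regulator of oligodendrocytes, had 24.9 and 12.9, with 77.1 in Control M (3 fragments) and 0 in Control F. Sox8 had 19.2 and 13.1, with 89.3 in Control M and 0 in Control F. Control M without the shared fragments had 51.8 at Sox10 (1 fragment) and 0 at Sox8. All 3 were higher in M than in F. In bulk nuclei, a difference in cell composition and a difference in signal per nucleus cannot be told apart.

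Astrocyte identity genes had medians a little above those of all genes, by a margin that depended on the window and start used, and the difference was not tested. Of 20, 9 (45%) were high in both SOX9 libraries, against 33.5% of all genes, and the medians were 4.03 in SOX9 M and 4.08 in SOX9 F against 3.58 and 3.24. At the start of the best-ranked transcript, the mean of the M and F medians was 6.83 for the list and 3.55 for all genes. At the gene start it was 4.05 against 3.41 with ±1 kb, 5.18 against 4.15 with ±500 bp, 4.14 against 2.69 with ±2 kb and 4.35 against 2.40 with the median of 100-bp bins. Aldoc, an aldolase of astrocyte metabolism, led with 26.5 and 18.9. Glul, the glutamine synthetase gene, had 23.2 and 11.6, and Slc1a2, the main glutamate transporter, had 19.5 and 11.5. Aqp4, the water channel of astrocyte endfeet, was lowest with 1.75 in SOX9 M and 0 in SOX9 F, from 2 and 0 fragments. The list mean was 8.46 in SOX9 M, 5.66 in SOX9 F, 7.24 in Control M (6 fragments) and 11.1 in Control F (2 fragments), so the groups overlapped. Both controls had 0 fragments in the list without the shared fragments.

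Genes of reactive astrocytes were as a list a little below all genes, with 5 of 20 (25%) high in both and medians of 2.62 and 3.03. Stat3, the transcription factor downstream of IL-6 type cytokines, had 39.5 in SOX9 M and 19.9 in SOX9 F. Socs3, its feedback inhibitor, had 16.0 and 18.6, and Slc39a14, a zinc importer, had 13.4 and 8.35. Timp1, an inhibitor of metalloproteinases, was lowest with 2.68 and 0. The list mean was 6.52 in SOX9 M, 4.68 in SOX9 F, 6.50 in Control M (4 fragments) and 8.19 in Control F (2 fragments), and without the shared fragments it was 5.48 (1 fragment) and 0 in the controls.

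AP-1 and immediate early genes, which are induced within hours of injury in many cells, stood above the level of all genes. Of 13 AP-1 genes 10 (76.9%) were high in both SOX9 libraries, with medians of 11.2 and 9.56. Jund had 46.2 in SOX9 M and 35.0 in SOX9 F, and Jun had 37.9 and 42.3. Fos had 21.9 and 20.4, and Batf, an AP-1 factor of immune cells, was lowest with 0.726 and 0. Jund, Jun and Fos were thus high in both libraries while Batf was near 0. At the TSS, Jund had 98.1 in Control M (3 fragments) and Jun 241 in Control F (1 fragment), both 0 without the shared fragments, and Fos had 0 in both controls. Over the gene body Fos went the other way, with 6.48 in SOX9 M, 12.5 in SOX9 F, 133 in Control M (7 fragments) and 90.7 in Control F (1 fragment). It was among the genes called lower there (log2 difference −3.53, limma adjusted p = 0.0194). It was not called lower there with the replicate block, without SOX9 M or without the shared fragments, where the controls had 827.5 (7 fragments) and 0. It was called lower without SOX9 F, without Control M and without Control F. Of 16 immediate early genes 12 (75%) were high, with medians of 11.6 and 8.98. Egr1 had 36.2 and 28.2, Klf6 had 28.7 and 16.9, and Arc had 21.1 and 13.0, while Egr2 had 1.74 and 1.16. Median CpG ratios of these lists were 0.670 and 0.664 against 0.474 over all genes, and the part of base composition in their level was not tested.

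Cartilage genes that SOX9 drives in chondrocytes were mostly not high. Of 14, 1 (7.14%) was high in both libraries by the 5-fold mark. The medians of 4.57 and 4.04 were, like those of the astrocyte identity genes, a little above those of all genes. The high one was Col11a2, a collagen chain, with 14.4 and 15.6. It had 9.16 in Control M (1 fragment) and 0 in Control F, and 57.1 (1 fragment) and 0 without the shared fragments. Cnmd, a cartilage angiogenesis inhibitor, had 6.79 and 4.88, Matn1, a matrilin, had 4.70 and 8.0, and Matn3 was 1 of 2 members at 0 in a SOX9 library, with 0.746 and 0.

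Oligodendrocyte and precursor genes were the highest of the cell type lists. Of 15, 10 (66.7%) were high in both SOX9 libraries, with medians of 9.37 and 7.83. Cnp, a myelin enzyme, had 35.6 and 25.6. Olig1, a lineage transcription factor, had 24.4 and 20.9, and Mobp, a myelin protein, had 21.1 and 19.7. Pdgfra, the receptor of the precursors, was lowest with 1.12 and 1.82. The list mean was 12.4 in SOX9 M, 9.35 in SOX9 F, 5.20 in Control M and 11.0 in Control F, with 2 fragments in each control and 0 without the shared fragments. The share of nuclei of this lineage in the samples is not given in the labels, and their part in these values was not tested.

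Among the other cell types, neuron genes had medians a little above those of all genes, as astrocyte identity genes did, and blood and vessel genes were low. Of 17 neuron genes 6 (35.3%) were high in both, with medians of 4.41 and 4.00, led by the tubulin gene Tubb3 (16.5 and 16.8), followed by Map2 (17.3 and 9.17) and Nefm (11.8 and 8.50), with Gad1 lowest (0.744 and 0.550). At the start of the best-ranked transcript, the mean of M and F fell from 13.2 to 4.86 at Map2. Of 15 microglia and macrophage genes 1 (6.67%) was high, the transcription factor gene Spi1 with 8.02 and 5.28 (a mean of 2.18 at the start of the best-ranked transcript), and the list medians were 2.53 and 2.73. C1qa, a complement gene, had 3.94 and 3.24, and P2ry12 had 1 fragment in each library. Of 11 neutrophil and monocyte genes 0 were high, with medians of 1.14 and 0.842. Mmp9 led them with 2.98 and 2.68, followed by Ngp and Camp, and S100a9 had no fragment in its TSS window in any of the 4 libraries. Of 11 endothelial and mural genes 0 were high, with medians of 1.16 in both libraries, Flt1 leading with 2.86 and 3.43, then Pecam1 and Kdr, and 5 members, Tek among them (1.16 and 0), were at 0 in a SOX9 library.

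Ependymal and cilia genes had 4 of 11 (36.4%) high in both SOX9 libraries, with medians of 1.95 and 1.89, below those of all genes. The highest were the transcription factor genes Rfx3 (23.8 and 23.9), Rfx2 (17.6 and 15.5) and Foxj1 (16.6 and 11.0). Spag17, an axoneme gene with 0 and 1.75, was 1 of 2 members at 0 in a SOX9 library.

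Lists used as references spanned the range. Of 80 cytosolic ribosomal protein genes 56 (70.0%) were high in both SOX9 libraries, with medians of 9.59 and 8.52. Rps19 led with 52.6 and 28.7, then Rps21 with 25.6 and 26.8, while Rpl39l, a testis form, had 0.551 and 0.861. Of 67 replication-dependent histone genes 49 (73.1%) were high, with medians of 8.54 and 7.86, led by Hist2h2aa1 (35.0 and 28.1), Hist2h2aa2 (34.6 and 26.9) and Hist2h3c1 (35.0 and 25.9), with none at Hist1h2ba, 1 of 2 at 0 in both. These families are in use in most cells or in dividing cells and were close to the AP-1 list in their share of high genes. In the histone and Hox lists some genes had equal or near-equal values, as Hist1h2an and Hist1h2bp with 16.8 and 6.77 each. A single site can thus count more than once in these lists. Of 39 Hox genes 13 (33.3%) were high, with medians of 6.12 and 3.35, Hoxb9 having 9.96 and 10.7, Hoxa7 15.5 and 10.4, and Hoxc11, 1 of 2 at 0 in a library, 0.469 and 0. Of 1135 olfactory receptor genes 0 were high and the medians were 0, with Olfr287, Olfr1033 and Olfr1410 at the top with at most 3.42, and Olfr996 among the 546 without signal. Of 49 keratin genes 0 were high, with medians of 0.736 and 0.530, Krt8 leading with 2.36 and 2.38, then Krt83 and Krt42, and Krt84 1 of 6 at 0 in both.

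**Figure D3:**
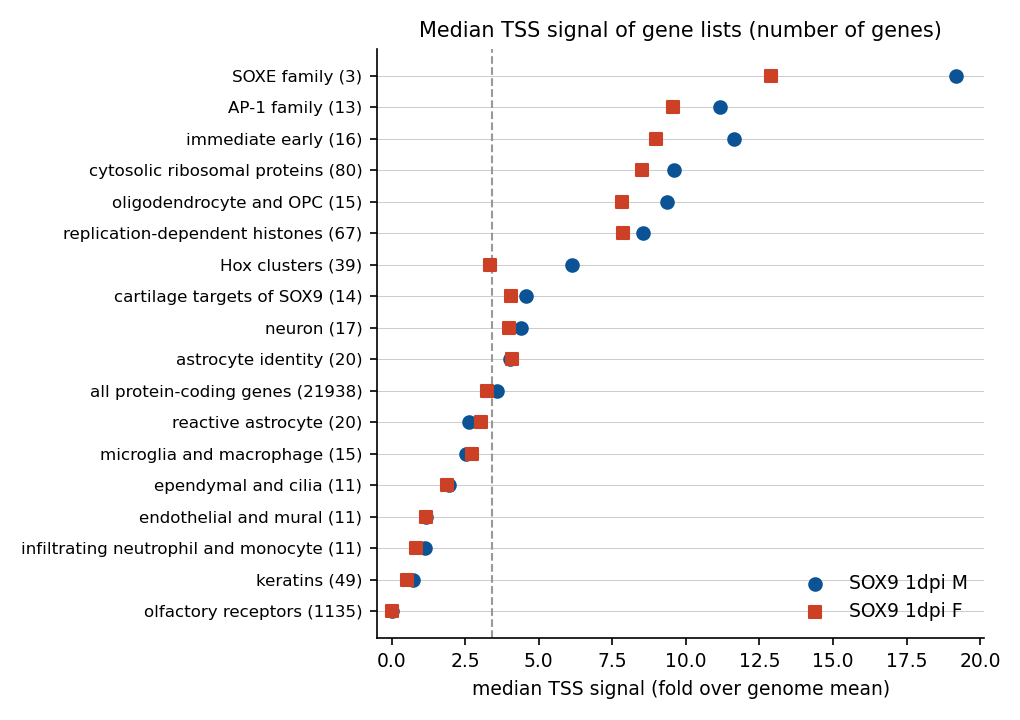
Median TSS signal (fold over the genome mean) of each gene list in SOX9 M (circles) and SOX9 F (squares), with the number of genes in brackets and a dashed line at the mean of the 2 medians of all genes. AP-1 genes stand at 11.2 and 9.56 and olfactory receptor genes at 0.

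The control means of the other lists stood above, between or below those of the SOX9 libraries. Above both were the ribosomal protein genes, with 11.7 and 9.95 in SOX9 M and F against 13.8 (39 fragments) and 17.9 (13) in Control M and F, and 23.3 (10) and 25.7 (1) without the shared fragments. The Hox genes had 5.72 and 4.36 against 11.0 (17) and 8.83 (3), and 8.15 (2) and 43.7 (1) without. The microglia and macrophage genes had 3.42 and 2.42 against 5.50 (4) and 10.99 (1), and 3.71 (1) and 0 without.

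In other lists the groups overlapped. AP-1 genes had 15.64 and 13.8 against 15.61 (8 fragments) and 21.4 (2), and immediate early genes 12.8 and 8.97 against 9.51 (8) and 11.2 (1). Histone genes had 11.0 and 9.73 against 13.1 (33) and 7.59 (5), ependymal genes 6.61 and 6.30 against 2.68 (1) and 15.8 (1), and endothelial and mural genes 1.20 and 1.36 against 4.34 (2) and 0. The SOXE genes had 17.9 and 10.2 against 55.5 (6) and 0. These control means rest on few fragments, and several were 0 without the shared ones. Without them Control M had 11.9 (1) in the immediate early genes, 19.6 (6) in the histone genes and 17.3 (1) in the SOXE genes, and 0 in the AP-1, ependymal and endothelial lists, while Control F had 0 in all 6.

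The controls were below both SOX9 libraries in the remaining lists. Neuron genes had 6.29 and 4.99 against 1.58 (1 fragment) and 0, cartilage genes 4.71 and 4.54 against 2.08 (2) and 0, and olfactory receptor genes 0.197 and 0.259 against 0.143 (7) and 0.0818 (1). Neutrophil and keratin genes had no control fragment. The cartilage mean of Control M was 4.08 (1) without the shared fragments, and the other control means of these lists were 0. Over all genes the means were 6.63 and 5.55 against 6.36 and 6.81, and 4.795 and 4.68 without the shared fragments.

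With all windows kept, the secondary-only controls, as deposited, carried more signal than the SOX9 libraries at the 500 highest windows. The mean signal there was 48.8 in SOX9 M and 40.5 in SOX9 F, which chose the windows, and 50.2 in Control M (Poisson interval 46.9 to 53.7, 839 fragments) and 56.7 in Control F (49.2 to 65.0, 207 fragments). The control mean was 53.5 ± 4.57 (SD, n = 2), 1.20 times the SOX9 mean of 44.6 (exact two-sided permutation test, p = 0.333). The same ratio was 1.15 at the 100 highest windows and 1.11 at the 2000 highest, where Control M (27.4) lay below SOX9 M (28.2). With repeat-masked windows left out, chosen after seeing the data, Control M (41.7) also lay below SOX9 M (42.4) at the 500 highest. In both cases the groups overlapped (exact two-sided permutation test, p = 0.667 each). Without the shared fragments the controls had 34.0 (102 fragments) and 54.3 (23 fragments), so the order then depended on the library. In the same setting, chosen after seeing the data for these sizes, the controls at the 100 highest windows had 70.1 (41 fragments) and 65.0 (4 fragments), against 95.9 in SOX9 M and 84.0 in SOX9 F. At the 2000 highest they had 19.5 (240 fragments) and 20.3 (39 fragments), against 28.2 and 23.1. At both sizes the controls were then below both SOX9 libraries. The SOX9 libraries chose these windows and also set which control fragments were removed, so no conclusion is drawn from this order. With the controls as deposited and no window left out, both stood above both SOX9 libraries at the 500 windows. A p of 0.333 is the lowest that groups of 2 allow, so the test could not have passed. The values above are therefore given as signal of the SOX9 libraries and not as occupancy.

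Gene by gene, limma called many differences, nearly all at genes with no control fragment. With an adjusted p under 0.05, 11425 of 20328 genes (56.2%) had more TSS signal in the SOX9 libraries and 5 (0.0246%) had less. Of the 11425, 11415 (99.9%) had 0 fragments in both controls, and of the 4733 genes with a control fragment 10 (0.211%) were called. Of the 500 highest genes 55 (11.0%) were called, a smaller share than among all genes tested. Over gene bodies 7257 of 21292 genes (34.1%) had more and 22 (0.103%) less, and 7110 of the 7257 (98.0%) had no control fragment. With the SOX9 libraries thinned to the depth of their controls, limma called 0 genes at the TSS, and over gene bodies 1 with more and 3 with less. At an unadjusted p under 0.05 there were 3 more and 2 less at the TSS, and 189 more and 223 less over gene bodies. With the shared fragments removed from the controls, the genes called with more signal numbered 15680 at the TSS and 15668 over gene bodies, and without Control M 13111 over gene bodies. Removing the shared fragments left 21278 of 21938 genes with no control fragment at the TSS, so the higher count there is partly built in. The genes called lower depended on the libraries kept. Without Control M they numbered 1132 at the TSS and 2841 over gene bodies, and without Control F 2583 and 2676. Without SOX9 M they numbered 10 and 4, and without SOX9 F 7 and 6. Without the mean-variance trend they were 118 and 130, with the replicate block 2 and 1, and without the shared fragments 0 and 3.

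Genes with the largest called differences had no control fragment. Slc35f5, a solute carrier, had 38.1 in SOX9 M, 42.5 in SOX9 F and 0 in both controls (limma adjusted p = 0.00304). Tnrc6b, of the microRNA silencing complex, had 47.8 and 30.5, and Usp20 and BC005624, which start 78 bp apart, both had 42.9 and 31.9. The SOX9 values of these genes lie below the 77.2 that 0 fragments still allow in Control M, so no fold is given and a difference in level was not detectable at this depth, although the test passed. Over gene bodies the largest were A730061H03Rik, Hist2h2aa2, Hist2h2aa1, 4930442H23Rik and E130116L18Rik, all with 0 control fragments, so their order depends on the pseudocount of 0.5 and no fold is given. The genes called lower at the TSS were Nkg7, Prkg1, Pabpc5 and Ntf3, each with 1 fragment in each control, and Gm10800 (log2 difference −0.91, adjusted p = 0.00274), and they are named after their values were seen. None of them was called lower without the shared fragments, without SOX9 M or without SOX9 F. With the replicate block Gm10800 alone of the 5 was, and without Control M or without Control F the other 4 were and Gm10800 was not.

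By list, calls and control fragments matched in some lists and not in others. Of the neuron genes 15 of 17 were called at the TSS, and 16 had no control fragment. Of the 13 AP-1 genes 4 were called, and 6 had no control fragment. Of the SOXE genes Sox9 alone was called (limma adjusted p = 0.00536), and it was the only one of the 3 with no control fragment. Its SOX9 values of 9.45 and 4.64 lie below what 0 fragments still allow in either control, so a difference in level was not detectable there. Of the astrocyte identity genes 13 of 20 were called and of the reactive astrocyte genes 15 of 20, against 56.2% of all genes tested. Of the tested genes with no control fragment 73.2% were called. Of 49 keratin genes, all without a control fragment, 43 were tested and 21 called, and of 11 neutrophil and monocyte genes, also all without, 10 were tested and 4 called. Of 1135 olfactory receptor genes 1127 had no control fragment, and 105 of 591 tested were called.

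Promoter sequences of the highest genes held GC boxes more often than SOX or AP-1 core motifs. Of the 500 highest genes 385 matched a RefSeq promoter (250 bases before to 50 after the start), as did 14056 of all 21938. On both strands GGGCGG, the GC box bound by SP1 and KLF factors, was in 76.9% of the 385 against 51.7% of all. ACAAT, the core that SOX factors bind, was in 15.6% against 24.9%, and its longer form AACAATG, which contains it, was in 1.30% against 2.83%. TGANTCA, the AP-1 site, was in 3.90% against 6.58%. The lists differ in GC content, and its part in these shares was not tested.

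The promoters of Cic, Rab40c and Hdgfl2, from the highest genes outside repeat-masked windows, and of Jun and Fos, from the AP-1 list, are printed because the signal of both SOX9 libraries is high over these bases. They were chosen after their values were seen. Mean signal over the printed bases was 176 in SOX9 M and 131 in SOX9 F at Cic (chr7:25267449-25267698, plus strand), 161 and 133 at Rab40c (chr17:25919728-25919964, minus strand) and 201 and 175 at Hdgfl2 (chr17:56079381-56079630, plus strand). It was 74.0 and 75.9 at Jun (chr4:95052223-95052472, minus strand) and 45.8 and 44.2 at Fos (chr12:85473640-85473889, plus strand). The controls had 106 and 0 at Cic, 188 and 0 at Rab40c, 178 and 0 at Hdgfl2, 0 and 772 at Jun, and 0 and 0 at Fos. Without the shared fragments all 5 had 0 in both controls, at a depth where a 0 does not show that signal is absent. Sequences are from RefSeq on GRCm38.p6, 5′ to 3′ on the strand of the gene, with GGGCGG or its reverse complement in capitals. Each holds GGGCGG at least once, and ACAAT and TGANTCA are not among the letters of these windows.
Cic: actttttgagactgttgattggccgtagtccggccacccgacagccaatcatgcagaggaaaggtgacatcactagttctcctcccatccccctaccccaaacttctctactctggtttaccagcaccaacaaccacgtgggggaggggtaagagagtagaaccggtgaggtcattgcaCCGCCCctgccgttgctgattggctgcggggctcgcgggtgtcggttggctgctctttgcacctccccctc
Rab40c: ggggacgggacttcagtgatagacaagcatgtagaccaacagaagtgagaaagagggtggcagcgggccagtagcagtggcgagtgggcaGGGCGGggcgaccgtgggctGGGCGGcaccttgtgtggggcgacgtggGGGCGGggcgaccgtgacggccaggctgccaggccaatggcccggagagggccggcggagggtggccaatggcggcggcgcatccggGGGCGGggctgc
Hdgfl2: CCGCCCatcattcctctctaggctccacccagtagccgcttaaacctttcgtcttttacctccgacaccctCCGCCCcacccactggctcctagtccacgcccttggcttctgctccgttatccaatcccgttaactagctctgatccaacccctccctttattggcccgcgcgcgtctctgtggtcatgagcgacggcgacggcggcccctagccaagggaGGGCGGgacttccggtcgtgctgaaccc
Jun: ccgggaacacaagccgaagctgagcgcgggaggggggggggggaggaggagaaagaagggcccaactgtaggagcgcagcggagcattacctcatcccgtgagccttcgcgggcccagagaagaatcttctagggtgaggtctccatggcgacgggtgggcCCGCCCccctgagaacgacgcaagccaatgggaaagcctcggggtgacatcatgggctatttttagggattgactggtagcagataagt
Fos: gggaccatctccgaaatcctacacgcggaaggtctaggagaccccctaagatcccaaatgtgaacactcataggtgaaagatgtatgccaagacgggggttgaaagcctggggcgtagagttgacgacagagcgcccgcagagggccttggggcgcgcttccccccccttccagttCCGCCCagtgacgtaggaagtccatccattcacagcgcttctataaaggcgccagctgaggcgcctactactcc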

How the data were processed

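The deposited values are the coverage signal of each library as whole numbers. They were taken as unscaled for depth, since stretches never overlap and abutting stretches never share a value, and the step that wrote them is not given in the sources used here. Per the submitters' processing notes, Bowtie2 2.5.4 mapped reads to mm10, Picard 3.4.0 handled duplicates and SEACR 1.3 served for peaks. Fragments were rebuilt by joining rises and falls of the coverage in order. Coverage was summed over the gene start ± 1000 bp and over the body of 21938 protein-coding genes (GENCODE M21, GRCm38) on the numbered chromosomes, X and Y, and divided by the library's mean over 2725521370 bp.

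SOX9 and control libraries were compared on log2(signal + 0.5) with limma 3.58.1 (R 4.3.3), using a mean-variance trend, over genes with any signal, with Benjamini-Hochberg adjustment. The fit was tested on simulated data of even depth without empty windows, so that test does not cover the depth of these controls. Shares were compared by exact permutation over the libraries. Python 3.11.15, numpy 2.4.6, pandas 2.3.3, scipy 1.17.1 and statsmodels 0.14.6 were used.

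A SOX9 library and the control of its letter come from 1 nuclei sample. Their deviations from the group means correlated at 0.0341 over 20328 genes. At 15595 of these genes neither control had a fragment and the control deviation is 0, so this value cannot decide whether the pairing matters.

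Named genes are the 20 highest at the TSS and 15 highest over the body by the lower SOX9 value, Sox9, the 3 highest members and the lowest of each list, the 5 largest called differences and the 3 largest M to F ratios each way, with ties at 0 in the ratios ordered by the higher value, an order chosen after the values were seen, and a lowest member tied at 0 taken by table order. Some genes that the rule names are not reported here. Members and lists were chosen with earlier results of these data known. Alternatives covered the pseudocount, a filter, scaling, the replicate block, the trend, all 8 libraries, thinning, shared fragments, window size, the start used, the median of bins, list size, midpoints and each replicate left out. Leaving out repeat-masked windows, and removing shared fragments for the profile, correlations, control means of the lists and the 100 and 2000 highest windows, were added after seeing the data.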

Additional observations from a re-analysis of the deposited data

Results flagged for a closer look

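The share of coverage around gene starts differed in direction between the sexes with the controls as deposited. SOX9 minus control was 0.375 points in M and −1.68 points in F. Without the fragments the controls share with SOX9 libraries, a setting added here after seeing the data, it was 2.47 in M and 1.49 in F, the same direction. Counted by fragment midpoints in that setting, F did not turn, with 8.41% in Control F and 8.12% in SOX9 F. For gene bodies SOX9 minus control was 1.53 points in M and −4.09 points in F, and 8.31 and −2.46 without the shared fragments. With 1 library of each kind per sex, these differences between the sexes were not tested.

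Sequences outside the assembled chromosomes and the mitochondrial genome, which the gene values do not use, held 0.308% of the coverage in SOX9 M and 0.336% in SOX9 F. Both are above the controls at 0.166% (M) and 0.220% (F).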

How the results depend on the processing

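The genes called with more SOX9 signal, 11425 at the TSS and 7257 over gene bodies, depended most on depth. They numbered 0 and 1 with the SOX9 libraries thinned to control depth, where fewer genes could be tested. The gene body calls, named after their values were seen, were Tmem88 (higher) and Gm10260, Tmsb10 and Fos (lower). With shared control fragments removed the gene body count was 15668, and with genes of a mean of at least 1 only it was 2716, where fewer genes were tested. With a replicate block the counts were 11776 and 6146, both within 1.5 times, while the genes with less went from 5 to 2 at the TSS and from 22 to 1 over gene bodies. Leaving out each replicate gave 10935 to 14437 at the TSS and 7835 to 13111 over gene bodies, the gene body count highest without Control M, with the lone library assumed to vary like the others. Genes with less numbered 7 to 2583 at the TSS and 4 to 2841 over gene bodies, the most without a control. The median log2 difference of all genes at the TSS, 2.18, depended on the pseudocount, with 3.98 at 0.1 and 1 at 2. It was 0.121 with thinning, 3.01 without shared fragments and 2.1 to 2.98 in the other settings.

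The difference in TSS share reversed to 1.98 points without shared fragments and to 0.0907 without SOX9 F, over a leave-one-out range of −1.40 to 0.0907. That of gene bodies reversed to 2.92 without shared fragments and to 0.569 without Control F, over −3.14 to 0.569. The SOX9 minus control share around gene starts in F alone reversed from −1.68 to 1.49 points without shared fragments, a setting added for it after seeing the data. By fragment midpoints it did not reverse, with 8.41% in Control F and 8.12% in SOX9 F. The cause was not tested.

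Control signal at the highest SOX9 genes, 53.5 at 500 genes, was 104 at 100 genes, 28.5 at 2000, 44.1 without shared fragments and, in a setting chosen after seeing the data, 46.3 without repeat-masked windows. Without shared fragments it was 67.6 at 100 genes and 19.9 at 2000, also chosen after seeing the data. Leaving out a replicate gave 50.2 to 56.7. The overlap of the M and F lists, 74.0%, was 81.0% for 100 genes and 58.4% with the median of 100-bp bins, which kept 336 of the 500 highest genes. Windows of ±500 bp kept 416 and moved 13 of 18 list medians by more than the spread of M and F, and the start of the best-ranked transcript kept 462 and moved 4. The median of bins moved 15 list medians and windows of ±2 kb moved 12. Moves of over 1.5 times in the mean of the M and F medians were AP-1 from 10.4 to 18.3 (±500 bp) and astrocyte identity from 4.05 to 6.83 (start). With the median of bins they were microglia from 2.63 to 1.46, reactive astrocyte from 2.83 to 1.71, neuron from 4.20 to 2.6 and ependymal from 1.92 to 0.956. Neutrophil, endothelial and keratin lists fell to 0, and with ±2 kb the olfactory list rose from 0 to 0.0831.

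Depth limits the control values of single genes, since 1 fragment gives 25.7 in Control M and 125 in Control F, against a median gene signal of 3.58 in SOX9 M and 3.24 in SOX9 F.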
